A study of Homo sapiens with 9 samples.

Results

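The genes described here are 49 interferon-stimulated genes, chosen by name as textbook members of the antiviral response. No measured value entered the rule, but earlier results of these data were known when the list was chosen. Each was matched by symbol to 1 gene ID among the 78899 in the count files. Of the 49 genes, 48 passed the filter on low counts and were tested among 16921 genes. The other, MX2, had 99 counts in all 9 libraries together. All libraries were made from total RNA of the immortalized human keratinocyte line HaCaT, grown in one medium with serum and low calcium. The labels describe no genetic change and no interferon, virus or other agent in any group. BD (3 libraries) and NBD (3 libraries) are keratinocyte subpopulations defined by fluorescence-activated sorting. Neither abbreviation nor sorting marker is spelled out. The control group (3 libraries) is labelled as the cell line, with no sorting named. The series set out to describe transcriptional differences tied to progenitor-like states. Nothing states whether replicates were separate cultures, and every p-value therefore refers to the spread among these libraries alone, which may be technical. All 3 groups come from 1 line.

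Interferons are secreted proteins that signal through paired cell-surface receptors and the kinases JAK1, JAK2 and TYK2. Type I and type III interferons lead to a complex that includes STAT2 and IRF9, named ISGF3, which binds the interferon-stimulated response element (ISRE) in promoters. Type II interferon acts on promoters through the gamma-activated site (GAS). The induced genes encode RNA sensors, enzymes that degrade viral RNA, proteins that trap viral components, and factors that sustain or damp the pathway. In skin, keratinocytes both make and answer interferons.

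The response elements are the sequence feature these genes are known for, so they were looked for in RefSeq promoter windows (GRCh38.p14), which run from 250 bases before to 50 bases after an annotated start. Of the 49 genes, 39 had at least 1 window, and the 39 had 52 windows. IRF7, OAS2, OASL, IFIT2, MX2, GBP2, GBP5, IFITM2, USP18 and TRIM22 had none in the table. The ISRE core was searched as GAAA, any 2 bases and GAAA again, and the GAS as TTCNNNGAA, both on both strands. The ISRE core was found in 27 of 39 genes (69.2%), against 4.38% of the 27305 genes with a window, and the GAS in 13 of 39 (33.3%) against 9.38%. By window, the shares were 61.5% against 3.57% for the ISRE core and 28.8% against 7.66% for the GAS. Counted window by window, the 2 motifs overlapped in 8 cases among the members. The same sites lie in both windows of IFI27 and are counted in each. A match is a run of letters in this window and was not tested for binding.

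The sequences below were chosen because they set genes called in both comparisons with the control, once control replicate 3 was left out, beside genes called in neither. They are printed 5′ to 3′ along the gene's own strand, with ISRE core matches, in either orientation, in capitals. In ISG15, which encodes a ubiquitin-like modifier, the 150 bases before the start (chr1:1013347-1013496, plus strand) hold a pair of overlapping matches.
ISG15: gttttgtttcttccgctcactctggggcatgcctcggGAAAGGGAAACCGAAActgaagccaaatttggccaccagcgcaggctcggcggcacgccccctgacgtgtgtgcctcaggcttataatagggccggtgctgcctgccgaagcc
The neighbouring genes IFIT1 (chr10:89392501-89392535, plus strand) and IFIT5 (chr10:89414418-89414567, plus strand) encode related RNA-binding proteins. The last 4 capitals of the IFIT5 stretch open a match that crosses the start.
IFIT1: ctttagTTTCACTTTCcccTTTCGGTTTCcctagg
IFIT5: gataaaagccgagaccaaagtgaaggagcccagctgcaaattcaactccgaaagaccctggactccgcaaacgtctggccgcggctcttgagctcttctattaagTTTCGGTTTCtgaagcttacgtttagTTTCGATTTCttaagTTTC
Short stretches with single or double matches are given for OAS3 (chr12:112938325-112938346, plus strand), IFI44L (chr1:78620369-78620390, plus strand), LGALS3BP (chr17:78979966-78979987, minus strand), BST2 (chr19:17405739-17405766, minus strand), HERC5 (chr4:88456988-88457015, plus strand) and IFI6 (chr1:27672270-27672313, minus strand). The windows of OAS3, IFI44L, HERC5 and IFI6 also hold an ISRE core match outside the stretch printed.
OAS3: agaaacGAAACTGAAAgcaggg
IFI44L: agtgagGAAAAAGAAAgttagt
LGALS3BP: tttctgGAAATCGAAAgtagac
BST2: ttctggGAAACTGAAACTGAAAacctaa
HERC5: ttacagTTTCCTTTTCCTTTTCgattcc
IFI6: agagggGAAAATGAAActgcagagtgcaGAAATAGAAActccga
Matches of the same kind stood in EIF2AK2 (chr2:37156971-37156996, minus strand), DTX3L (chr3:122564322-122564347, plus strand) and SAMD9 (chr7:93118100-93118121, minus strand), which like IFIT5 were called in neither comparison.
EIF2AK2: agtccaagggGAAAACGAAActgaga
DTX3L: ccagggaagcGAAACTGAAActttgc
SAMD9: agaaatGAAACTGAAAccaaac
The site in DTX3L is the same stretch of DNA as the only match of PARP9, which is read in the opposite direction from the same region.

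**Figure D1:**
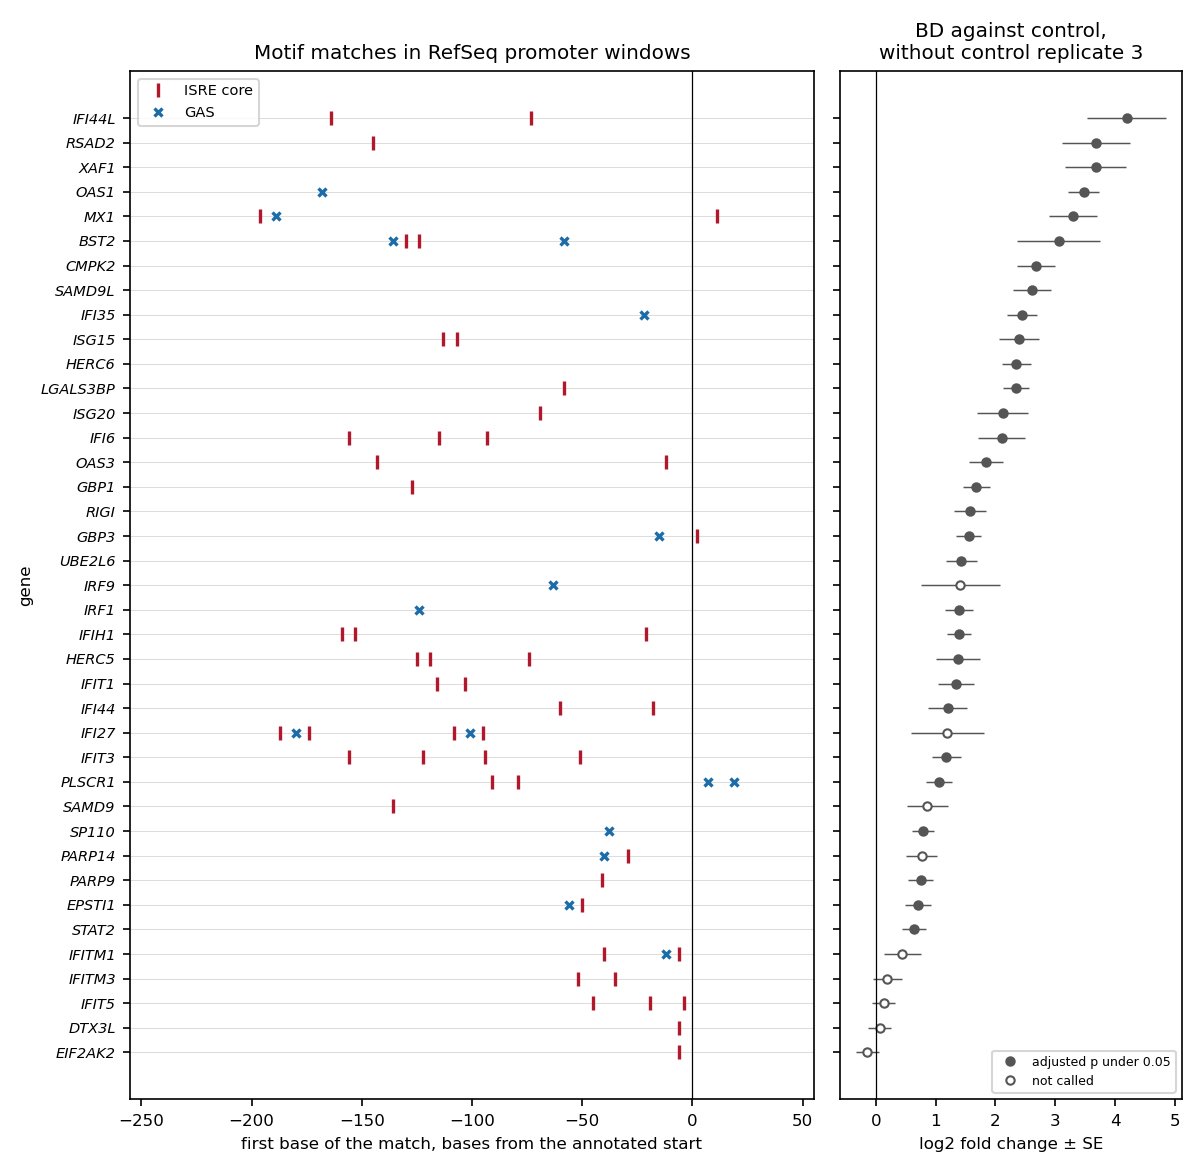
Left: position of each ISRE core (red bar) and GAS (blue cross) match in all RefSeq promoter windows of the 39 genes with a window. Positions are in bases from the annotated start of the window concerned, and the windows of a gene share its row. Right: log2 fold change ± SE of BD against control without control replicate 3 (edgeR), filled where the adjusted p was under 0.05. XAF1, CMPK2, SAMD9L and HERC6 lie high in the order with no match of either kind, while EIF2AK2, DTX3L, IFIT5 and IFITM3 lie at the bottom with 1 or more ISRE core matches.

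Libraries held 17128797 to 29512856 counts. Control replicates 1 and 2 stood apart from control replicate 3 and from the 6 sorted libraries, so each test below is given with all 9 libraries and again without control replicate 3. That library was singled out from these same counts, and the p-values without it do not allow for this choice. Over all 16921 genes, control replicates 1 and 2 both lay below the other 7 libraries at 21.6% of genes and above them at 18.9%. Mitochondrial rRNA took 12.3% and 11.9% of their counts, against 17.3% to 28.9% in the other 7, and their depth was the lowest, at 18054999 and 17128797 counts. The keratinocyte markers KRT5, KRT14, KRT8, KRT18, TP63 and CDH1 were present in every library. KRT15 read 27.0, 27.3 and 441 CPM in control against 284 to 445 CPM in the sorted libraries. The sum over the 9 listed keratinocyte markers went the other way and was highest in control replicates 1 and 2. It was 4499, 4899 and 3018 CPM in control and 2799 to 3769 CPM in the sorted libraries. Levels are normalised CPM, a gene's counts relative to the library total after TMM scaling. Extraction used 2 RNA kits, and the labels do not say which library came from which, so the part of the kit was not tested. Which of the controls is closer to the ordinary state of the line, and whether control replicate 3 belongs to the group its label gives, was not tested either, and this bears on every comparison with the control.

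In the 7 libraries other than control replicates 1 and 2, HaCaT cells expressed most of the 49 genes at a clear level with no agent named. Summed over the 49 genes, the level was 4574, 5207 and 5293 CPM in BD, 4359, 3966 and 5037 CPM in NBD, and 2188, 2022 and 4789 CPM in control. Control replicate 3 lay within the range of the sorted libraries, and control replicates 1 and 2 lay below all others. Gene by gene, both of those libraries lay below the other 7 for 42 of 48 tested genes (87.5%), against 21.6% of all genes, and for 0 of 48 did both lie above. The 6 tested exceptions were EIF2AK2, IFIT5, IFITM1, IFITM3, DTX3L and IFI27. Control replicate 3 was within the sorted range for 46 of 48 genes, against 87.3% of all genes, with MX1 below it (6.81% of all genes) and CMPK2 above it (5.87%). BD lay above all 3 controls without overlap for IRF1, OAS2, OAS3, MX1, GBP3, USP18, HERC6, IFI27 and LGALS3BP, 9 of 48 genes against 8.05% of all genes, and below them for 0 (7.72%). NBD lay above all controls for MX1, PARP14 and SAMD9L (4.67%) and below them for DTX3L (3.75%). On the log2(CPM + 0.5) scale, the median gene was 1.35 lower in control replicate 1 and 1.49 lower in control replicate 2 than the median of the other 7 libraries, and 0.05 lower in control replicate 3 than the median of the 6 sorted libraries.

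**Figure D2:**
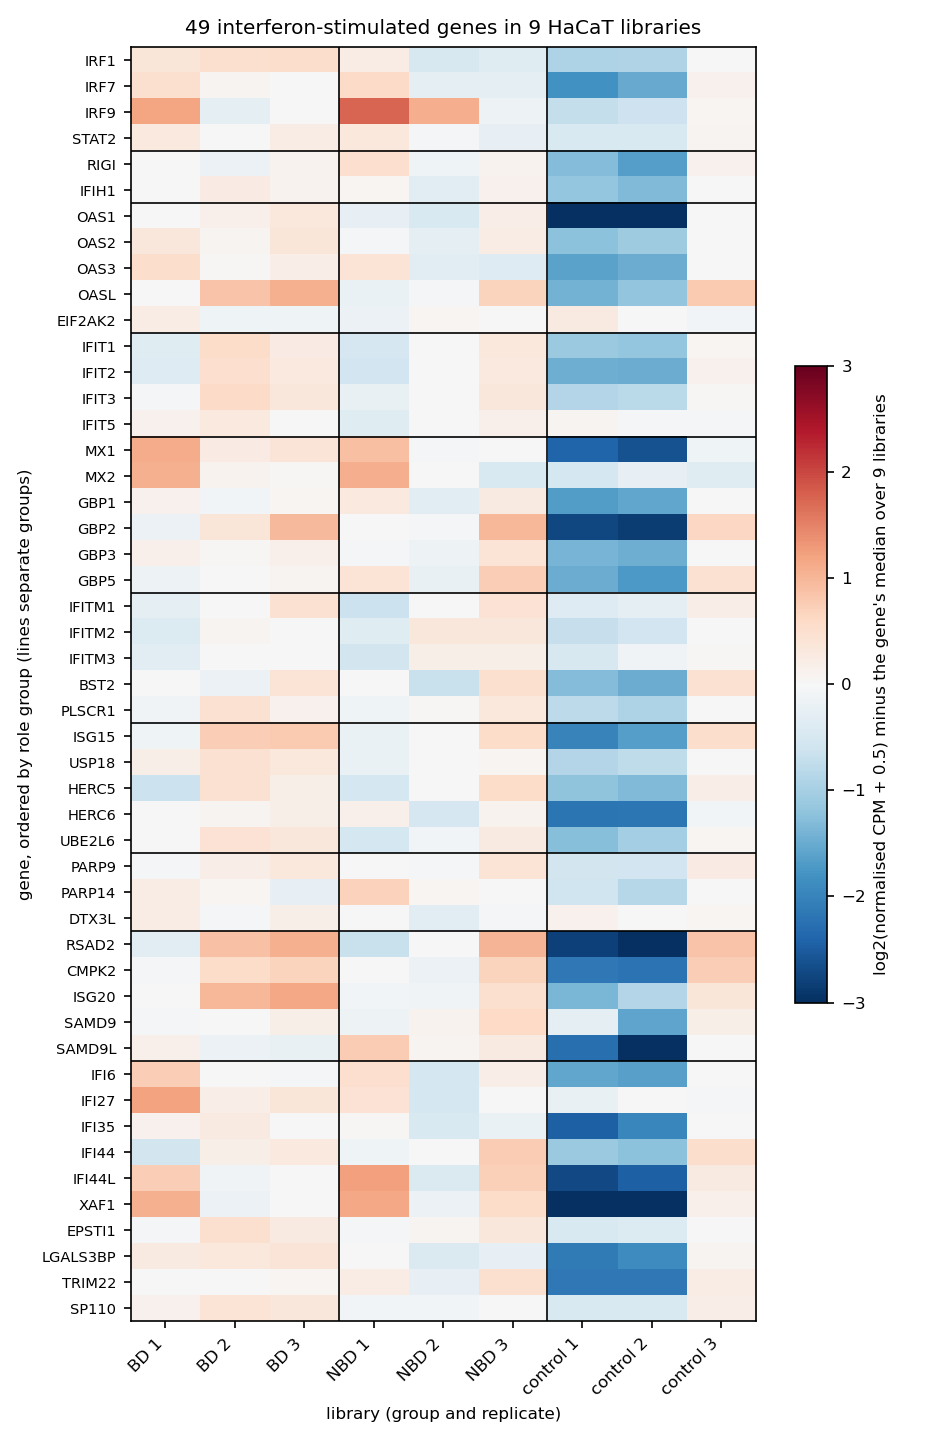
Each row is 1 of the 49 genes in role groups and each column 1 library. Colour is log2(normalised CPM + 0.5) minus the gene's median over the 9 libraries, with values beyond 3 in either direction shown at the end colour. The blue columns are control replicates 1 and 2, and control replicate 3 resembles the sorted libraries.

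With all 9 libraries in one edgeR quasi-likelihood fit, 0 of 48 genes passed an adjusted p of 0.05 in any of the 3 comparisons. The background was as bare, since edgeR called 0% of all genes higher in each comparison and 0.0177% lower in BD against NBD. DESeq2 and limma-voom also called 0 members. DESeq2 called 0.0532% of all genes higher and 0.29% lower in BD against NBD, 0.065% and 0.922% in BD against control, and 0.0709% and 0.106% in NBD against control. At an unadjusted p under 0.05, BD was higher than control for 19 of 48 genes (4.73% of all genes), NBD higher than control for 7 (4.05%) and BD higher than NBD for 1 (2.04%), with none lower (9.06%, 5.08% and 3.82% of all genes in the same order). The median log2 fold change of the 48 genes was 0.90 for BD against control, 0.68 for NBD against control and 0.14 for BD against NBD, beside 0.03, 0.04 and -0.02 over all genes. It was above 0 for 47, 45 and 34 of 48 genes. Coordinates of genes are those of GENCODE 29 on GRCh38. Both comparisons with the control share the same control libraries and are not independent of each other.

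Without control replicate 3, when all 49 genes passed the filter, BD was higher than control for 38 of 49 genes (13.8% of the 17755 genes tested) and lower for 0 (10.5%). NBD was higher than control for 37 (11.6%) and lower for 0 (6.56%). For BD against NBD the same fit called 0 higher (0%) and 0 lower (0.0901%). The 2 sets shared 35 genes, with STAT2, EPSTI1 and SP110 called in BD alone and IRF9 and PARP14 in NBD alone. EIF2AK2, IFIT5, MX2, IFITM1, IFITM2, IFITM3, DTX3L, SAMD9 and IFI27 were called in neither. The median log2 fold change of the 49 genes was 1.56 for BD and 1.47 for NBD, beside 0.04 and 0.08 over all genes. With control replicate 3 standing alone for the control, the medians were 0.08 for BD and -0.06 for NBD, beside 0.02 and 0.03 over all genes. With no filter on low counts and all 9 libraries, edgeR called 27 genes higher in BD (1.09% of 39344 genes) and 11 in NBD (0.712%), with 0 lower (1.86% and 0.798%), and 0 in BD against NBD (0.0127% higher, 0.32% lower). The median difference of the members from control thus rested on control replicates 1 and 2, since it was 0.08 and -0.06 against control replicate 3 alone. Fewer responding cells and less RNA per cell cannot be told apart in bulk RNA.

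**Figure D3:**
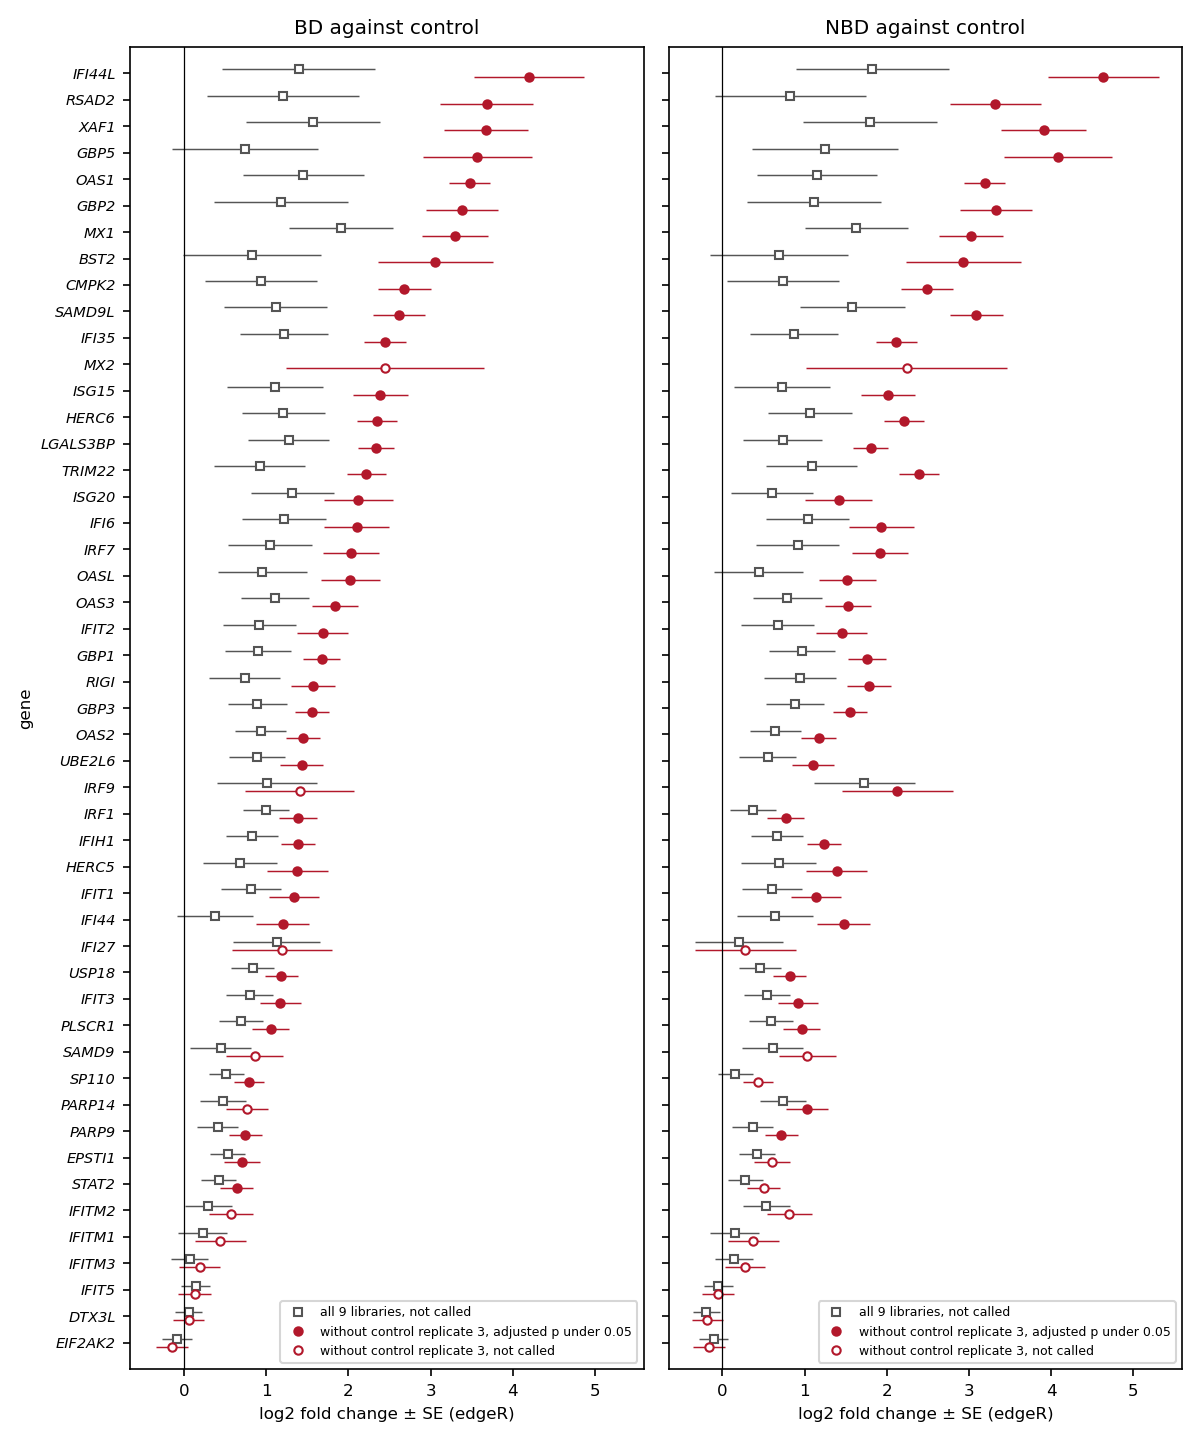
Log2 fold change ± SE (edgeR) of BD (left) and NBD (right) against control for the 49 genes, with all 9 libraries (grey squares, none called) and without control replicate 3 (red circles, filled where the adjusted p was under 0.05). The red values reach 4.19 and 4.64 at IFI44L, where the grey ones are 1.39 and 1.82. GBP5, BST2 and MX2 rest on 1 to 4 counts in each of control replicates 1 and 2.

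Among the transcription factors, IRF1 switches on both antiviral and antigen-presentation genes. Its level was 172, 188 and 193 CPM in BD, 158, 96.3 and 105 in NBD and 70.4, 71.5 and 134 in control. All BD libraries lay above all NBD and all control libraries, and IRF1 was the 1 gene under an unadjusted p of 0.05 in BD against NBD, with a log2 fold change of 0.63 ± 0.28 and an adjusted p of 0.814 by edgeR, ranging over 0.417 to 1.00 in the 18 alternatives. STAT2, the subunit that gives ISGF3 its activating domain, read 104, 85.2 and 99.5 CPM in BD, 106, 83.3 and 72.0 in NBD and 62.3, 61.9 and 90.6 in control. The lowest values were again those of control replicates 1 and 2, and without control replicate 3 it was higher in BD by 0.64 ± 0.20 on the log2 scale. IRF7, which amplifies interferon transcription and is itself induced, read 15.3, 11.5 and 10.9 CPM in BD, 16.5, 9.01 and 8.92 in NBD and 2.7, 3.47 and 11.9 in control. Control replicates 1 and 2 lay below every other library.

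IRF9, the DNA-binding subunit of ISGF3, was the scarcest of the 4 factors and varied within groups. It read 5.76, 1.76 and 2.24 CPM in BD, 8.69, 5.37 and 1.96 in NBD and 1.17, 1.29 and 2.33 in control. NBD replicates 1 and 2 and BD replicate 1 were the 3 highest, and the other 3 sorted libraries lay below control replicate 3. Its log2 fold change was the lowest of all members in BD against NBD, at -0.71 ± 0.59. Without control replicate 3, NBD exceeded control by 2.13 ± 0.67 with an adjusted p of 0.0499 by edgeR, just inside the threshold, and BD by 1.41 ± 0.66 with an adjusted p of 0.145.

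Both cytosolic RNA sensors followed the main pattern. IFIH1, which encodes MDA5, a sensor of long double-stranded RNA, read 53.6, 65.0 and 59.0 CPM in BD, 56.4, 43.4 and 59.1 in NBD and 24.2, 21.4 and 54.4 in control. RIGI, a sensor of short triphosphorylated RNA, read 13.3, 11.8 and 14.4 CPM in BD, 19.1, 12.1 and 14.4 in NBD and 5.05, 3.86 and 14.6 in control. Control replicates 1 and 2 had less than any other library for both genes, and without control replicate 3 the log2 fold changes were 1.39 and 1.57 for BD and 1.24 and 1.79 for NBD, all called.

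The OAS enzymes make short oligoadenylates that activate the ribonuclease RNase L. OAS1 (chr12:112906777-112933222) read 80.2, 88.7 and 99.4 CPM in BD, 68.0, 58.7 and 91.8 in NBD and 8.01, 8.18 and 81.5 in control. Control replicates 1 and 2 lay near 8 CPM, and the lowest other library was at 58.7 CPM. Without control replicate 3 the level in BD was 11.1-fold that of control, a log2 fold change of 3.48 ± 0.25 with an adjusted p of 2.53e-05 by edgeR, the lowest of all members in that fit. With all 9 libraries it was 1.45 ± 0.74 with an adjusted p of 0.389, and the range over the 18 alternatives was 7.54e-07 to 1.00. OAS3, the longest of the family, read 433, 307 and 343 CPM in BD, 400.3, 239 and 229.8 in NBD and 97.3, 106 and 299 in control. OASL, an inactive relative that assists RIGI, read 166, 302 and 345 CPM in BD, 143, 163 and 262 in NBD and 61.5, 72.6 and 285 in control. Its replicate 1 libraries were low in BD and in NBD, whereas those of OAS3 were high. OAS2 ranged from 39.0 to 61.8 CPM in the sorted libraries and read 20.2, 22.6 and 48.2 CPM in control.

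EIF2AK2 encodes PKR, a kinase that halts translation on binding double-stranded RNA, and it departed from the OAS genes. It read 213, 169 and 167 CPM in BD, 163, 193 and 184 in NBD and 221, 186 and 174 in control, with the highest value in control replicate 1. Its log2 fold change was the lowest of all members in BD against control, at -0.08 ± 0.18 with all libraries and -0.14 ± 0.19 without control replicate 3. Exons of EIF2AK2 overlap those of GPATCH11 on the other strand, those of IRF1 overlap C5orf56, and those of IRF9 and GBP2 overlap other genes on the same strand, so these counts are uncertain in the same way as others noted below. The window of EIF2AK2 holds an ISRE core across its start, shown above.

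IFIT proteins bind foreign RNA ends and block its translation. IFIT3 read 206, 318 and 269.6 CPM in BD, 182, 213 and 269 in NBD and 115, 121 and 219 in control. IFIT2 read 171, 317 and 275 CPM in BD, 149, 223 and 272 in NBD and 80.6, 78.5 and 244 in control. IFIT1 (chr10:89392546-89406486) read 66.5, 126 and 102 CPM in BD, 60.4, 86.1 and 107 in NBD and 39.6, 38.2 and 89.1 in control. In each of the 3, control replicates 1 and 2 were the lowest and replicate 1 was the lowest library of BD and of NBD. IFIT5, 8099 bases downstream of IFIT1 on the same strand of chromosome 10, gave 46.7, 52.2 and 42.8 CPM in BD, 33.4, 42.8 and 47.9 in NBD and 45.5, 41.4 and 41.5 in control. Its 3 groups overlapped fully, and its log2 fold change without control replicate 3 was 0.13 ± 0.20 in BD and -0.05 ± 0.20 in NBD, beside 1.34 ± 0.30 and 1.14 ± 0.30 for IFIT1. Exons of IFIT2 overlap those of LIPA on the other strand, so that without a stated strand setting reads of the pair cannot be told apart.

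**Figure D4:**
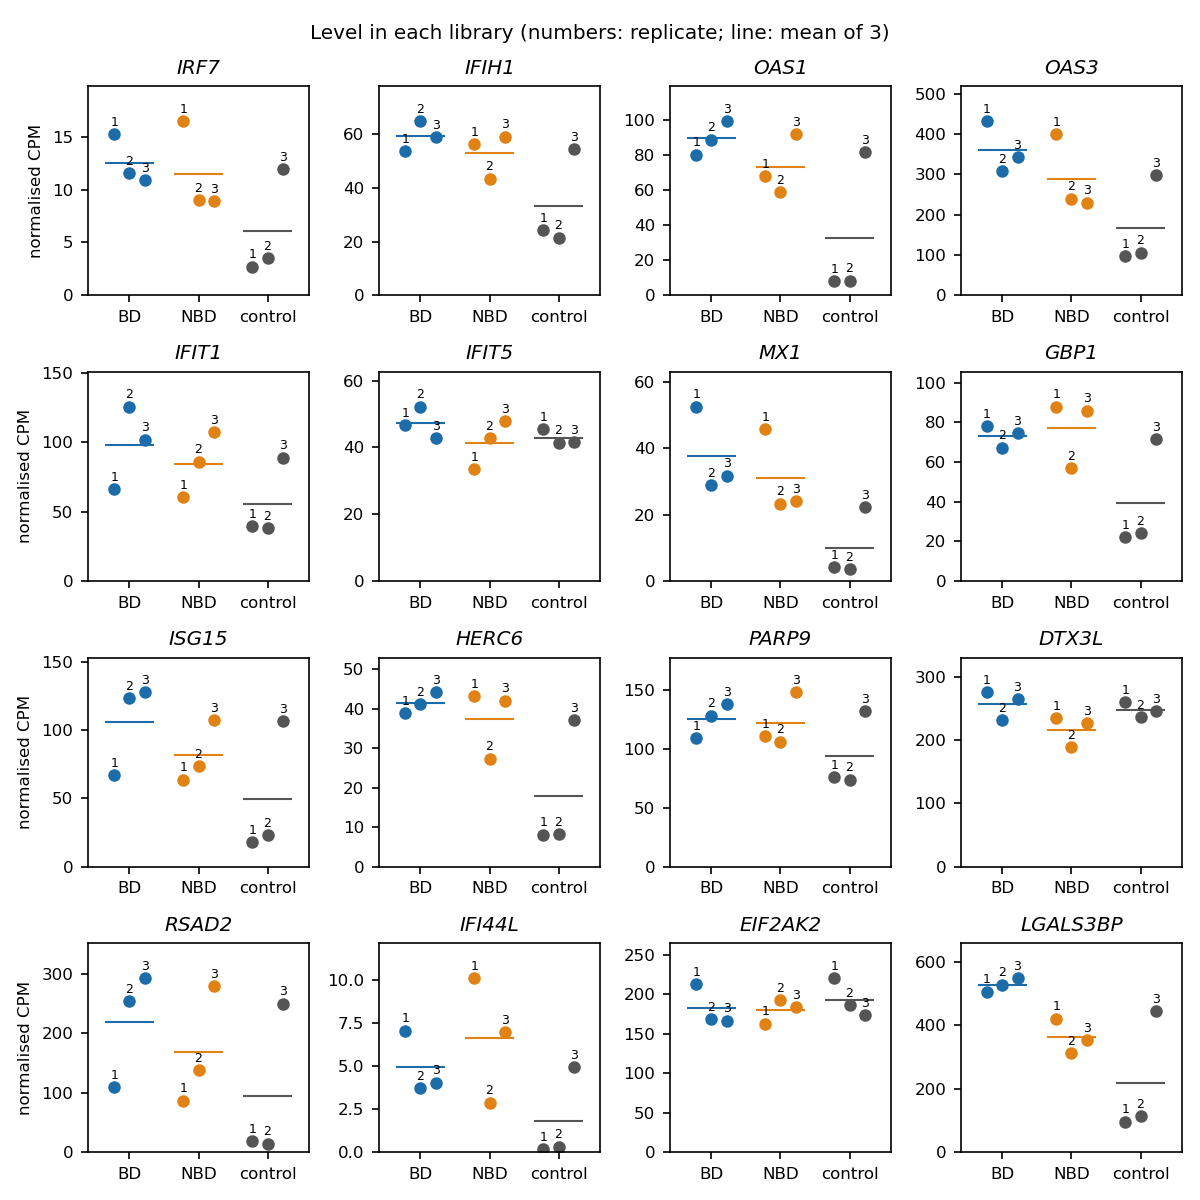
Normalised CPM (linear axis from 0) in each of the 9 libraries for 16 members, with the replicate number beside each point and a line at the mean of each group of 3. Control replicate 3 lies among the sorted libraries in most panels, and in those of IFIT5, DTX3L and EIF2AK2 control replicates 1 and 2 are not the lowest.

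The dynamin-like GTPases include MX1, which traps viral nucleocapsids, and the guanylate-binding proteins, which attack membranes around pathogens. MX1 (chr21:41420304-41459214) read 52.6, 28.9 and 31.7 CPM in BD, 45.8, 23.3 and 24.1 in NBD and 4.18, 3.53 and 22.2 in control. All 6 sorted libraries lay above all 3 controls, and its log2 fold change for BD, 1.91 ± 0.63 with all libraries, was the highest of the members in that fit, with an adjusted p of 0.333 by edgeR and a range of 7.78e-10 to 1.00 over the 18 alternatives. GBP1 read 77.9, 67.2 and 74.3 CPM in BD, 87.9, 56.9 and 85.8 in NBD and 22.1, 23.9 and 71.4 in control. GBP3 read 80.1, 73.4 and 79.5 CPM in BD, 70.7, 65.0 and 95.2 in NBD and 27.2, 25.9 and 72.0 in control. GBP2 read 31.7, 46.4 and 71.2 CPM in BD, 36.1, 34.4 and 72.0 in NBD and 5.00, 4.59 and 55.8 in control, so that replicate 3 exceeded replicates 1 and 2 in each group. Without control replicate 3, the level of GBP2 in BD was 10.4-fold that of control and that of GBP1 3.20-fold. GBP5 was near the limit of detection, with 26 to 65 counts in the sorted libraries and 3, 1 and 54 in control. MX2, 10913 bases upstream of MX1, had 2 to 33 counts in the sorted libraries and 1, 3 and 3 in control.

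Of the 5 membrane restriction factors, the 3 IFITM genes were called in neither comparison. IFITM3, which blocks viral fusion in endosomes, read 73.0, 92.0 and 92.9 CPM in BD, 62.9, 105 and 104 in NBD and 66.2, 85.4 and 94.1 in control. IFITM1, which acts nearer the cell surface, read 27.0, 33.4 and 45.6 CPM in BD, 21.3, 33.8 and 45.5 in NBD and 25.4, 26.9 and 38.1 in control. IFITM2 read 10.4, 14.9 and 14.0 CPM in BD, 10.7, 17.8 and 17.7 in NBD and 8.47, 9.24 and 14.1 in control. All 3 had overlapping groups with all 9 libraries, while for IFITM2 control replicates 1 and 2 lay below the other 7 libraries. IFITM1 and IFITM2 overlap on the same strand in the annotation and are close in sequence, so their counts are uncertain. PLSCR1, a phospholipid scramblase that hinders viral entry, read 119.7, 177 and 141 CPM in BD, 117, 131 and 161 in NBD and 74.2, 67.3 and 129 in control and was called without control replicate 3, by 1.06 ± 0.22 in BD and 0.96 ± 0.22 in NBD. BST2, the tether that holds budding virions, had 14 to 52 counts in the sorted libraries and 4, 2 and 50 in control.

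All 5 members grouped here under ISG15 conjugation, a list that does not cover the whole system, were called in both comparisons without control replicate 3. ISG15 itself read 67.0, 123 and 127 CPM in BD, 63.5, 73.4 and 107 in NBD and 18.0, 22.8 and 107 in control. UBE2L6, its conjugating enzyme, read 142, 191 and 179.7 CPM in BD, 97.9, 134 and 173 in NBD and 58.1, 69.4 and 149 in control. Control replicates 1 and 2 were the lowest for both, and BD and NBD replicate 1 the next lowest for ISG15. HERC5, the main ISG15 ligase, gave 16.4, 35.5 and 29.3 CPM in BD, 17.8, 25.8 and 37.9 in NBD and 11, 10.0 and 29.5 in control. HERC6, its neighbour 14005 bases away, gave 38.9, 41.1 and 44.1 CPM in BD, 43.2, 27.3 and 42.0 in NBD and 8.11, 8.29 and 37.0 in control. The pair differed, in that HERC5 was lowest in replicate 1 among the BD and among the NBD libraries and HERC6 was not in NBD. USP18, which removes ISG15 and damps receptor signalling, ranged from 12.8 to 20.3 CPM in the sorted libraries and read 7.86, 8.51 and 14.7 CPM in control. Every BD value of USP18 exceeded every NBD value, with a log2 fold change of 0.37 ± 0.26 and an adjusted p of 0.845 by edgeR.

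PARP9 and DTX3L encode partners in one ADP-ribosylation and ubiquitin ligase complex and are transcribed in opposite directions, their 5′ ends overlapping by 340 bases in the annotation. PARP9 read 109, 128 and 138 CPM in BD, 111, 106 and 148 in NBD and 75.9, 74.0 and 132 in control. DTX3L read 275, 231 and 265 CPM in BD, 234, 188 and 226 in NBD and 259.9, 236 and 245 in control. PARP9 was lowest in control replicates 1 and 2, while DTX3L there was as high as in BD, and without control replicate 3 the BD log2 fold changes were 0.75 ± 0.21 and 0.06 ± 0.19. DTX3L had the lowest log2 fold change of all members in NBD against control, at -0.19 ± 0.17, and all its NBD values lay below all control values. PARP14, a larger relative, read 351, 312 and 251 CPM in BD, 484, 311 and 298 in NBD and 196, 164 and 296 in control. All its NBD values exceeded all control values, and without control replicate 3 it was called in NBD (1.03 ± 0.26), while the adjusted p in BD was 0.0505 by edgeR.

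Among the nucleotide and RNA effectors, RSAD2 (viperin) makes a chain-terminating nucleotide from the product of CMPK2, and the genes lie side by side on chromosome 2 with overlapping 5′ ends on opposite strands. RSAD2 (chr2:6865806-6898239) read 109, 254 and 293 CPM in BD, 86.9, 139 and 279.6 in NBD and 19.4, 14.9 and 250.3 in control. CMPK2 read 39.1, 59.1 and 64.5 CPM in BD, 40.5, 36.0 and 64.7 in NBD and 8.73, 8.29 and 67.4 in control. Control replicate 3 lay close to BD replicates 2 and 3 for both, and without it the level in BD was 12.9-fold that of control for RSAD2. SAMD9 and SAMD9L encode paralogous translation inhibitors 12031 bases apart on chromosome 7. SAMD9 read 259, 267 and 302 CPM in BD, 238, 286 and 403 in NBD and 216, 89.3 and 302 in control. SAMD9L read 80.2, 63.6 and 60.9 CPM in BD, 121, 75.5 and 86.0 in NBD and 14.6, 7.78 and 71.7 in control. For SAMD9 control replicate 1 was close to the sorted libraries and control replicate 2 far below, and it was not called. SAMD9L was called without control replicate 3, by 2.61 ± 0.32 in BD and 3.09 ± 0.32 in NBD. ISG20, an RNA exonuclease, ranged from 5.21 to 13.3 CPM in the sorted libraries and read 1.89, 2.86 and 7.45 CPM in control.

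Of the other induced genes, LGALS3BP (chr17:78971238-78980109), a secreted glycoprotein, had the highest mean CPM of the members over all 9 libraries and in BD, while PARP14 was higher in NBD and DTX3L and PARP14 in control. It read 506, 528 and 548 CPM in BD, 421, 312 and 353 in NBD and 96.7, 113 and 443 in control. The BD libraries lay within a narrow band above all NBD and all control values, and the BD against NBD log2 fold change was 0.54 ± 0.48 with an adjusted p of 0.884 by edgeR. IFI44, a cytoplasmic protein, read 83.1, 138 and 150.4 CPM in BD, 113, 123 and 209.8 in NBD and 56.3, 52.1 and 178 in control. TRIM22, a ubiquitin ligase with antiviral activity, read 52.8, 53.0 and 55.4 CPM in BD, 62.1, 44.3 and 74.4 in NBD and 11.6, 11.6 and 61.5 in control. XAF1, which antagonises the apoptosis inhibitor XIAP, read 48.5, 20.3 and 23.1 CPM in BD, 52.5, 20.4 and 34.1 in NBD and 2.45, 2.35 and 25.7 in control. Control replicates 1 and 2 were the lowest for all 4 genes, by the widest ratio for XAF1, whose log2 fold change without control replicate 3 was 3.68 ± 0.51 in BD and 3.91 ± 0.52 in NBD.

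IFI44L (chr1:78619922-78646145), next to IFI44, was low yet had the highest log2 fold changes of the set without control replicate 3. It read 7.08, 3.72 and 4.06 CPM in BD, 10.1, 2.89 and 6.99 in NBD and 0.204, 0.336 and 4.97 in control, from 4 and 6 counts in control replicates 1 and 2 and 70 to 274 in the sorted libraries. Without control replicate 3, edgeR gave 4.19 ± 0.67 for BD (adjusted p 0.00179, range over alternatives 0.00179 to 1.00) and 4.64 ± 0.67 for NBD (adjusted p 0.00137, range 0.00137 to 1.00). IFI27 read 2.36, 0.941 and 1.10 CPM in BD, 1.18, 0.372 and 0.747 in NBD and 0.561, 0.728 and 0.715 in control. It had the highest log2 fold change in BD against NBD, 0.93 ± 0.52 with an adjusted p of 0.824, and was one of the few members at about the same level in all 3 control libraries. IFI6, IFI35, EPSTI1 and SP110 had sorted ranges of 5.21 to 13.3, 17.1 to 28.4, 19.8 to 28.9 and 20.6 to 29.4 CPM. Their control values were 2.30, 2.18 and 7.79, 3.88, 5.71 and 23.7, 15.0, 15.3 and 20.6 and 15.7, 15.8 and 25.1 CPM in that order.

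No difference between BD and NBD passed the test for any member. None was called in any of the 18 alternatives, and adjusted p-values with all 9 libraries ran from 0.814 to 1.00 by edgeR. Log2 fold changes ran from -0.71 (IRF9) to 0.93 (IFI27), with standard errors of 0.17 to 0.91. BD lay above NBD without overlap for IRF1, USP18, LGALS3BP and SP110, 4 of 48 genes against 7.19% of all genes, and below NBD without overlap for 0 against 7.36%. The whole OAS and PKR group (5 of 5) and the IFIT family (4 of 4) had log2 fold changes above 0, between 0.02 (EIF2AK2) and 0.52 (OASL), and none of these passed the test. Every other role group had members on both sides of 0. Log2 fold changes were above 0 for 34 of 48 members, against 48.4% of all genes. The standard errors leave room for moderate differences in either direction, so the result does not show that the 2 populations express the set alike. The mitochondrial rRNA share, 17.3% to 22.3% in BD and 26.8% to 28.9% in NBD, also differed between the sorted groups, and its part in these values was not tested.

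A further pattern ran across the sorted libraries by replicate number. For many genes, replicate 1 differed from replicates 2 and 3 in the same direction in BD and in NBD. On the log2(CPM + 0.5) scale, XAF1 was 1.15 higher in BD replicate 1 than the mean of the other 2 and 0.98 higher in NBD replicate 1. MX1 (0.79 and 0.94), IRF9 (1.33 and 1.27) and IFI44L (0.79 and 1.08) were likewise higher. RSAD2 (-1.32 and -1.17), HERC5 (-0.95 and -0.80), OASL (-0.96 and -0.53), ISG15 (-0.90 and -0.48) and IFIT2 (-0.79 and -0.72) were lower there. Replicate 1 was the highest of 3 in both populations for 13 of 48 genes (24.9% of all genes) and the lowest in both for 17 (25.6%), shares near those of all genes, while the other 18 were neither. Across the 48 genes, Pearson's r between the 2 replicate 1 differences was 0.868, beside 0.657 across all 16921 genes. The points share the 6 libraries, and the labels do not say what replicates of the same number had in common. Separately, NBD replicate 2 was the lowest of the 6 sorted libraries for 20 of 48 genes, against 13.7% of all genes.

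**Figure D5:**
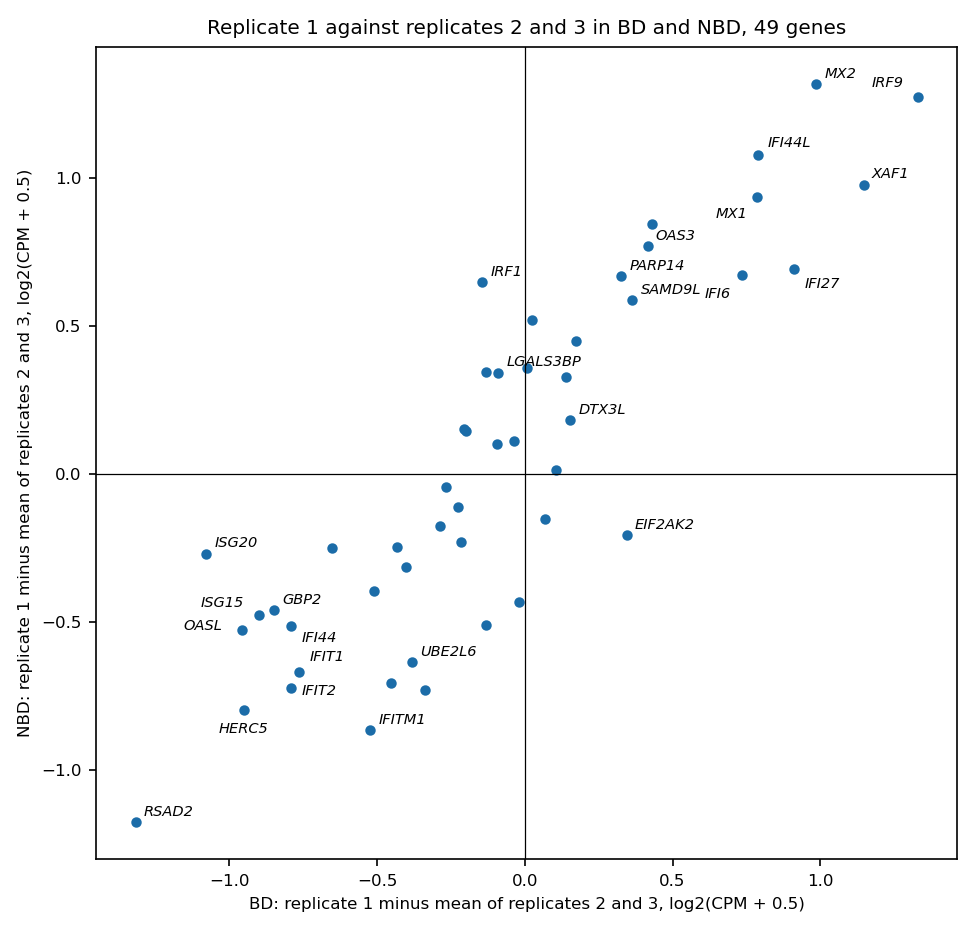
For each of the 49 genes, log2(normalised CPM + 0.5) of replicate 1 minus the mean of replicates 2 and 3, in BD (horizontal) and in NBD (vertical). IRF9, XAF1, MX1 and IFI44L lie at the upper right and RSAD2, HERC5 and IFIT2 at the lower left, and 18 of the 48 tested genes had replicate 1 neither highest nor lowest in both populations.

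Per kilobase of annotated exon, the mean level in BD was highest for LGALS3BP (147 ± 5.96 CPM per kilobase, SD, n = 3), ISG15 (113 ± 35.9) and IFIT3 (100.2 ± 21.4), followed by UBE2L6 (77.8 ± 11.7) and OASL (77.1 ± 26.6). The spread of ISG15 covers both its neighbours in that order. In NBD the same 3 genes read 101 ± 15.4, 86.4 ± 24.2 and 83.8 ± 16.7, which do not differ beyond their spread. The lowest were MX2 (0.0462 ± 0.0360 in BD), GBP5 (0.161 ± 0.0187), IFI27 (0.354 ± 0.187), IFI44L (0.484 ± 0.180) and IRF9 (0.858 ± 0.575). Thus the set spans from abundant secreted and ubiquitin-like products to transcripts at the edge of detection within one cell line.

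Genes with and without an ISRE core match overlapped in response. Of the 27 genes with a match, 21 had control replicates 1 and 2 below all other libraries, 19 were called in BD without control replicate 3, and the median log2 fold change was 1.34. Of the 12 with a window and no match, 12 had the pattern, 11 were called and the median was 1.96. The latter include OAS1, CMPK2, RIGI, XAF1 and HERC6. For the GAS, 11 of 13 genes with a match and 22 of 26 without showed the pattern. The windows cover 300 bases around a start, and sites elsewhere were not searched.

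The rest of the pathway was read from 65 further genes in 6 lists, of which 56 were tested. With all 9 libraries edgeR called 0 of 56, and at an unadjusted p under 0.05 BD was higher than control for 14 and lower for 2, and NBD higher for 5 and lower for 1. Without control replicate 3, BD was higher for 29 and lower for 2, and NBD higher for 24 and lower for 2, on the backgrounds given above. Transcripts of the interferons themselves were scarce. IFNL2, IFNL3, IFNA1 and IFNG had 0 counts in all 9 libraries, and IFNB1, IFNL1 and IFNK had 9, 3 and 1 counts over all libraries. A count of 0 allows up to 0.103 to 0.168 CPM per library (3 counts, counting error only). IFNE, an interferon of epithelia, read 1.91, 0.823 and 1.10 CPM in BD, 2.81, 1.94 and 1.22 in NBD and 0.408, 0.280 and 1.96 in control, and it was called in both comparisons without control replicate 3, by 1.88 ± 0.59 in BD and 2.53 ± 0.59 in NBD.

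Among the receptors, the type I chain IFNAR1 read 51.1, 38.7 and 38.8 CPM in BD, 36.5, 47.1 and 48.3 in NBD and 43.9, 40.4 and 41.7 in control, with all groups overlapping. IFNGR1, the ligand-binding chain for type II interferon, read 178, 175 and 178 CPM in BD, 186, 148 and 258 in NBD and 80.0, 75.5 and 215 in control and was the receptor gene called in both comparisons without control replicate 3 (1.2 ± 0.24 and 1.36 ± 0.24). IFNLR1, the specific chain for type III interferon, was called in BD (0.85 ± 0.24). IFNGR2 (0.08 ± 0.26 and -0.18 ± 0.26), IFNAR2 and IL10RB were not called. Of the kinases, JAK1 (0.62 ± 0.17 in BD, 0.58 ± 0.17 in NBD) and JAK2 (1.47 ± 0.26 and 1.68 ± 0.26) were called and TYK2 was not. STAT3 was called in BD alone (0.62 ± 0.19).

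Negative regulators were called in both directions. SOCS1, an inhibitor of JAK kinases, read 0.728, 3.45 and 4.82 CPM in BD, 0.777, 1.16 and 1.45 in NBD and 0.204, 0.336 and 0.903 in control. SOCS3, a related inhibitor, read 29, 45.2 and 79.3 CPM in BD, 21.6, 21.3 and 39.0 in NBD and 11.2, 11.8 and 50.6 in control. Both were called in BD without control replicate 3 (3.47 ± 0.81 and 2.17 ± 0.42). In NBD both log2 fold changes were also above 0 (2.07 ± 0.81 and 1.27 ± 0.41) but not called, and neither gene was called in BD against NBD. SOCS1 was near the limit of detection in control replicates 1 and 2, where 3 counts are 0.153 and 0.168 CPM. PTPN2, a phosphatase of STAT proteins, was called in both (1.41 ± 0.24 and 1.39 ± 0.24), PTPN6 (0.75 ± 0.22) and PIAS4 (0.75 ± 0.20) in BD and PIAS1 (0.79 ± 0.18) in NBD. PTPN11 was lower in both (-0.95 ± 0.19 and -0.64 ± 0.19). Of 10 tested sensing genes, TLR3 (1.99 ± 0.27 and 1.86 ± 0.27), IKBKE (2.08 ± 0.31 and 1.81 ± 0.31) and DHX58 (1.57 ± 0.29 and 1.41 ± 0.28) were called in both, and MAVS (0.09 ± 0.23 and -0.07 ± 0.23), TRIM25 (-0.30 ± 0.29 and -0.25 ± 0.29), TBK1 (0.13 ± 0.17 and 0.41 ± 0.18), IRF3, CGAS, STING1 and TICAM1 in neither. Of 26 tested further induced genes, 15 were called higher in each comparison. In BD they were ZC3HAV1 (1.43 ± 0.23), a binder of viral RNA, DDX60 (1.63 ± 0.43), DDX60L (1.01 ± 0.21), PML (1.80 ± 0.36), SP100 (0.51 ± 0.17), TRIM21 (1.03 ± 0.20), TRIM26 (1.02 ± 0.19), RTP4 (1.93 ± 0.30), TDRD7 (1.51 ± 0.22), APOL1 (1.04 ± 0.22), APOL6 (1.08 ± 0.18), TNFSF10 (1.75 ± 0.45), PARP10 (1.35 ± 0.32), OGFR (0.99 ± 0.20) and SHFL (1.33 ± 0.25), and the same 15 were called in NBD. PNPT1, a mitochondrial RNA exonuclease, was lower in both (-1.11 ± 0.18 and -0.76 ± 0.18). ADAR, the abundant RNA editing enzyme (0.19 ± 0.23 and 0.12 ± 0.23), and RNF213 (0.48 ± 0.49 and 0.68 ± 0.49) were not called.

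Some markers of other cell types were low in the same control libraries as most members. CLEC4C, LILRA4 and IL3RA of plasmacytoid dendritic cells had 0 counts in every library. TCF4, the other gene of that list, read 11.1, 11.5 and 13.3 CPM in BD, 14.4, 18.6 and 13.4 in NBD and 16.2, 11.9 and 13.4 in control, and the leukocyte marker PTPRC was at most 0.148 CPM. Of 8 leukocyte markers, 7 were under 1 CPM in all libraries. The other, CD14, read 4.65, 5.37 and 6.85 CPM in BD, 3.66, 4.01 and 6.84 in NBD and 1.02, 0.616 and 6.32 in control, and so was low in the same 2 control libraries as the interferon-stimulated genes. The summed leukocyte list was 4.07 to 7.16 CPM in the sorted libraries and 1.22, 0.784 and 6.81 CPM in control. The summed endothelial list, with 2 of 4 genes under 1 CPM in all libraries, was low in the same libraries, at 6.73 to 18.9 CPM and 2.6, 1.85 and 16.7 CPM, as did the summed fibroblast list, at 2.67 to 4.68 CPM and 0.408, 1.12 and 4.78 CPM. The summed melanocyte list did not follow this pattern, at 0.833 to 1.85 CPM in the sorted libraries and 0.204, 0.840 and 0.790 CPM in control. Of all genes tested, 21.6% had control replicates 1 and 2 both below the other 7 libraries. The part of other cells in the difference between control libraries was not tested.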

How the data were processed

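Total RNA of 9 HaCaT libraries was measured as read counts per gene ID, deposited by the authors without normalization. FastQC 0.74, Trimmomatic 0.39, STAR 2.7.11b, featureCounts and GRCh38 are named in the submitters' processing notes. Neither the strand setting, the annotation release nor the handling of multiple matches is stated there. The members and lists were chosen with earlier results of these data known.

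Symbols came from a gene name table and GENCODE 29. edgeR 4.0.16 (R 4.3.3) kept 16921 genes by filterByExpr, scaled libraries by TMM and fitted all 9 with group as the only term (6 residual degrees of freedom). Tests were two-sided quasi-likelihood tests with Benjamini-Hochberg adjustment over all genes, called at an adjusted p under 0.05. The code was tested on simulated data. Values in every library were printed for up to 4 members per role with the highest mean CPM over all libraries, and for the highest and lowest log2 fold change of each comparison. Other list genes were named where called without control replicate 3 or among the 3 most abundant of their list. A gene of these lists is not reported here. The 18 alternatives were other size factors and filters, DESeq2 1.42.0, limma-voom (limma 3.58.1), a replicate block, the compared groups alone, control replicate 3 alone as control, and each library left out. No 2 libraries of the same group agreed within sampling noise.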

Additional observations from a re-analysis of the deposited data

How the results depend on the processing

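In BD against NBD, 0 members were called under the main fit and under all 18 alternatives, and the median log2 fold change of the tested members stayed between 0.08 and 0.25. In BD against control, 0 members were called except with no filter on low counts (27, on a background of 1.09% higher) and without control replicate 3 (38). In NBD against control, the exceptions were the same, with 11 (0.712%) and 37. Leaving out each library in turn gave 0 to 38 called in BD against control and 0 to 37 in NBD against control, with every other library left out giving 0. All 27 and all 11 members called with no filter were also called without control replicate 3. The cause of the calls with no filter was not tested. The medians ran from 0.08 to 1.56 for BD and from -0.06 to 1.47 for NBD, lowest with control replicate 3 as the only control. With control replicate 3 as the only control, 14 of the 38 members called in BD and 24 of the 37 called in NBD without that library had log2 fold changes below 0, down to -0.64 (GBP5) and -0.61 (BST2), and none of these was called. Under the other settings 0 of them were below 0. The replicate block called 0 members in each comparison, with medians of 0.18, 1.03 and 0.79. Replicate numbers were not taken as pairs in the main fit because the labels say nothing of pairing, so the block is an alternative. Correlations of libraries' deviations from their group means ran from 0.0316 to 0.589 for the same number. For different numbers they ran from -0.532 to 0.391. Whether libraries of the same number were paired was not tested. Depth limits GBP5, BST2, IFI44L and MX2 in control replicates 1 and 2, where 3 counts are 0.153 and 0.168 CPM.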
